A study of Mus musculus with 157 samples.

Results

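Whole thymus labelled as non-tumoral was compared between mice carrying the RERT2-Cdc20(D/AAA) genotype and mice carrying RERT2-Cdc20(+/D). Libraries were taken where the labels gave normal thymus as the tissue, non-tumoral thymus as the source and no MYCChr6 allele. This gave 15 of the 157 libraries in the series, 9 D/AAA and 6 +/D. Both groups carry the RERT2 element and 1 D allele of Cdc20, so they differ, as labelled, in whether the second allele is AAA or wild type. RERT2 is known as a tamoxifen-inducible Cre placed in the gene for the large subunit of RNA polymerase II, which acts in most tissues and not in thymocytes alone. The age, sex and treatment of the mice, and whether each library came from a separate mouse, were not given in the sources used here. The p-values below therefore rest on the spread among libraries, which may be technical in part. Replicate numbers were given here in accession order within each group, so they only name libraries and pair none.

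Cdc20 activates the anaphase-promoting complex, which marks securin and cyclin B for destruction and so lets sister chromatids part. Until all chromosomes are attached to the spindle, Mad2 and BubR1 hold Cdc20 in check, and the AAA form is known to escape Mad2, so cells can enter anaphase early and gain or lose whole chromosomes. In the thymus, progenitors pass from a double negative through a double positive stage, marked by CD4 and CD8 together, to single positive T cells, with bursts of division driven by Notch signalling and the pre-T cell receptor. The comparison asks what the AAA allele does to the RNA of a thymus in which no tumour was recorded.

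Total expected counts were 2673329 to 6209705 in the D/AAA libraries and 4564661 to 6749336 in the +/D libraries. A single annotated ribosomal RNA gene, CT010467.1, took 42.7 to 56.0% of the counts in D/AAA and 45.8 to 53.2% in +/D libraries. Levels are given as CPM, counts scaled to a common TMM-adjusted library total, and since transcript length is not part of the unit, levels are compared between libraries and not between genes. The tissue label was checked against marker genes. The thymocyte genes Cd3e and Cd4 were present in all 6 +/D libraries, at 2053 to 2603 CPM and 431 to 574 CPM. Of thymic epithelial markers, Krt5 was at 0 in all 15 libraries, and Foxn1, the regulator of this epithelium, had counts in 1 +/D library only, at 1.51 CPM. The cortical epithelium list of 20 genes, 3 of them at 0 in all 15 libraries, summed to 60.8 to 240 CPM in D/AAA and 93.2 to 267 CPM in +/D libraries. The medullary list, with 8 genes at 0, summed to 2.34 to 98.8 CPM in D/AAA and 37.7 to 77.3 CPM in +/D libraries. In bulk RNA, fewer cells of a type and less RNA per cell cannot be told apart.

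D/AAA replicate 7 stood apart. Its Cd4 level was 6.08 CPM, against 227 to 647 CPM in the other 8 D/AAA libraries and 431 to 574 CPM in +/D libraries. Xist, the RNA of the inactive X chromosome, was at 5.61 CPM there, against 1128 to 2200 CPM in the other 8 D/AAA libraries and 1225 to 2004 CPM in +/D libraries, while of the Y-linked genes Ddx3y was at 0 in all 15 libraries and Eif2s3y, Kdm5d and Uty were at 0.444 CPM or less. The root mean square distance of a library from the +/D median profile, over 7012 genes, was 1.31 on the log2 scale in D/AAA replicate 7, 0.545 to 0.821 in the other D/AAA libraries and 0.493 to 0.642 in +/D libraries. D/AAA replicates 5 and 3 came next, at 0.821 and 0.775. The label of replicate 7 may deserve a check, but the labels give no sex and whether the library matches its label was not tested. Replicate 7 holds the highest D/AAA value of Myc, Notch1, Sidt1 and Cdc20 among the genes below. Counts below are therefore also given without replicate 7 and without replicates 3, 5 and 7, choices made after the data were seen. No gene had an adjusted p under 0.05 by edgeR's quasi-likelihood test in either case (0%). At an unadjusted p under 0.05, 4.38% of genes were then higher and 3.05% lower without replicate 7, and 3.21% higher and 2.07% lower without replicates 3, 5 and 7.

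Across the whole table no single gene passed. By edgeR's quasi-likelihood test with Benjamini-Hochberg adjustment, 0 of 11044 genes (0%) had an adjusted p under 0.05. At an unadjusted p under 0.05 there were 907 genes (8.21%), 562 higher in D/AAA (5.09%) and 345 lower (3.12%). DESeq2 called 52 of 14388 genes (0.361%), 44 higher (0.306%) and 8 lower (0.0556%), limma voom with quality weights called 1, edgeR without a low-count filter called 10, and edgeR with RLE factors called 0. Without D/AAA replicates 1 and 2, which had the lowest totals, edgeR called 1 gene (0.00916%), with 7.73% of genes higher and 4.65% lower at that unadjusted p. Without D/AAA replicates 3, 5, 7, 8 and 9, left out for the high chromosome 15 scores described below, it called 0, with 3.09% higher and 2.73% lower. DESeq2 replaced outlying counts in 365 genes, none of them among the 52. The 9 and 6 libraries did not overlap for 6 genes higher in D/AAA (0.0543%) and 10 lower (0.0905%). The named genes and gene groups below are given as values on that footing. The gene lists and their members were chosen with earlier results of these data known. A list's share above that of all genes is therefore a description and no independent support.

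Myc, the transcription factor that drives growth and ribosome production, had 63.5, 104.5 and 322 CPM as lowest, median and highest value in D/AAA libraries, against 36.5, 47.5 and 88.9 CPM in +/D libraries. All 9 D/AAA libraries lay above the +/D median, but the groups overlapped: D/AAA replicates 1, 2, 4 and 9 lay between 63.5 and 78.2 CPM, below the highest +/D library. Replicates 7, 5 and 3 were the highest, at 322, 243 and 176 CPM. The log2 fold change was 1.38 ± 0.36 (SE), with an adjusted p of 0.382 by edgeR's quasi-likelihood test and 0.0328 by DESeq2. It was 1.13 to 1.57 when each library was left out in turn.

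Genes of ribosome building had mostly positive fold changes, 30 of 33. Of 33 tested nucleolar and ribosome biogenesis genes, 0 passed and 17 had an unadjusted p under 0.05, all higher in D/AAA, where 5.09% of all genes did so. Their median log2 fold change was 0.60, beside 0.02 over all 11044 genes. Gnl3, the nucleolar GTPase nucleostemin, had 5.52, 15.8 and 27.4 CPM in D/AAA libraries, against 2.48, 4.68 and 7.34 CPM in +/D libraries. All 9 D/AAA libraries lay above the +/D median and 3 of them, replicates 1, 4 and 6, lay within the +/D range (log2 fold change 1.697 ± 0.413). Dkc1, the pseudouridine synthase dyskerin, had 32.4, 51.2 and 94.9 CPM in D/AAA libraries and 26.1, 31.99 and 40.4 CPM in +/D libraries, and Npm1, a nucleolar chaperone, had 181, 228 and 560 CPM in D/AAA libraries and 163, 203 and 223 CPM in +/D libraries. D/AAA replicates 2 and 4 lay inside the +/D range for both genes, and replicate 1 for Npm1 too.

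Of 28 tested metabolic genes with described MYC control, 12 had an unadjusted p under 0.05, all higher in D/AAA, beside 5.09% of all genes. Their median was 0.54 and all 28 fold changes were positive. Shmt2, the mitochondrial serine hydroxymethyltransferase of one-carbon metabolism, had 44.0, 74.3 and 282 CPM in D/AAA libraries, against 24.5, 36.8 and 43.3 CPM in +/D libraries. It was 1 of the 6 genes whose D/AAA libraries all lay above every +/D library. The log2 fold change of Shmt2 was 1.51 ± 0.36, with an adjusted p of 0.340 by edgeR's quasi-likelihood test and 0.0117 by DESeq2. Hspd1, a mitochondrial chaperonin, had 30.2, 50.8 and 114 CPM in D/AAA libraries and 26.4, 30.3 and 35.9 CPM in +/D libraries, and only its D/AAA replicates 2 and 4 lay within the +/D range. Chaperones had 8 of 17 members higher (median 0.49) and glycolytic enzymes and transporters 4 of 16 (median 0.22). Cytosolic ribosomal proteins had 17 of 45 (median 0.36, 44 of 45 positive). Over all genes 5.09% were higher, and none were lower in these groups at that p.

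Without D/AAA replicates 3, 5 and 7, at a background of 3.21% of genes higher, the counts were 5 of 33 nucleolar genes (median 0.25), 4 of 28 metabolic genes (median 0.11), 0 of 17 chaperones (median 0.08), 0 of 16 glycolytic genes (median 0.09) and 3 of 45 ribosomal proteins (median 0.16). Without D/AAA replicate 7 alone they were 13, 10, 6, 3 and 9, with a background of 4.38%. When single libraries were left out, nucleolar counts ranged from 12 to 18, metabolic counts from 10 to 15, chaperone counts from 5, without D/AAA replicate 5, to 10, and ribosomal protein counts from 7 to 28. The ribosomal protein count was 27 and 28 without D/AAA replicates 2 and 4, and 7 to 11 without D/AAA replicate 3, 5, 7 or 8 or any +/D library other than replicate 5. The mean score of the nucleolar genes was lowest in D/AAA replicate 4, at -0.09, with a median of 0.38 and a maximum of 1.26 in replicate 7. Scores in +/D libraries ran from -0.24 to 0.20, so the groups overlapped.

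**Figure D1:**
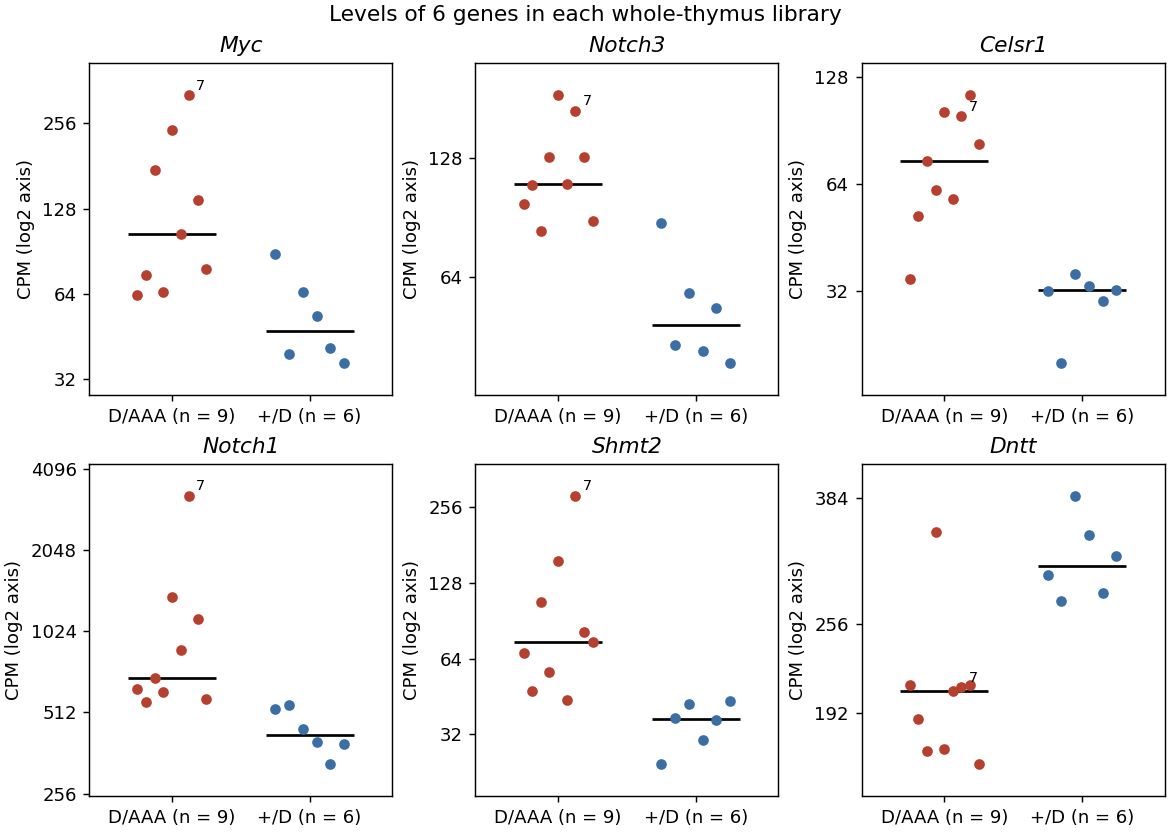
Each point is the level of a gene in 1 library, in CPM on a log2 axis, for 9 D/AAA and 6 +/D whole-thymus libraries, with the group median as a line and D/AAA replicate 7 marked. Shmt2 and Notch1 have no overlap between the groups, while the other 4 genes overlap in 1 or more libraries.

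MYC with its partner MAX binds the E-box CACGTG, which reads the same on both strands. It was searched in windows from 250 bases before to 50 bases after gene starts (RefSeq, GRCm38.p6), as a description of these letters and not of binding. The motif was in 10 of 25 metabolic list members with a window (40%), 6 of 28 nucleolar members (21.4%) and 983 of 8080 tested genes with a window (12.2%), and in 2349 of all 32851 windows (7.15%). The metabolic genes were listed for their described MYC control, so their share is no test of such control. Gnl3, Shmt2 and Notch3 had no CACGTG in this window. Printed are the windows of the nucleolar and the metabolic member with the smallest p among those holding the motif, Utp4 of the small-subunit processome and Hspd1, 5′ to 3′ along the gene, with the E-box in capitals.
Utp4, chr8:106893390-106893689, plus strand: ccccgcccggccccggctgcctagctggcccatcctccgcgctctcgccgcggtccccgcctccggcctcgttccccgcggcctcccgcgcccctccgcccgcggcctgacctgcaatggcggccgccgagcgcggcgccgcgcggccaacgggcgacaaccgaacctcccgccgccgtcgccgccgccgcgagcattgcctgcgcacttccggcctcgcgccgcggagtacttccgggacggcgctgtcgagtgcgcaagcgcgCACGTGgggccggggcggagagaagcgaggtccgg
Hspd1, chr1:55088194-55088493, minus strand: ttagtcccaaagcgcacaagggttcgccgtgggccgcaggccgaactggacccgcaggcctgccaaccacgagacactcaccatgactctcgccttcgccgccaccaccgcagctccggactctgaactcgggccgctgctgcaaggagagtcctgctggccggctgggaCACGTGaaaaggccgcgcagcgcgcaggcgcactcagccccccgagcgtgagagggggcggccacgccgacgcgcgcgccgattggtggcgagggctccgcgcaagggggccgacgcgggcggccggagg
The E-box begins at position 16 of the Utp4 transcript, counted from 1 at the start site, and 80 bases before the Hspd1 start. Utp4 had 14.5, 23.3 and 42.6 CPM in D/AAA libraries and 6.67, 12.02 and 19.1 CPM in +/D libraries (log2 fold change 0.996 ± 0.287), with 3 D/AAA libraries inside the +/D range.

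Notch3, a receptor of immature thymocytes, had the smallest p of all genes but Celsr1. It had 83.4, 110.2 and 184 CPM in D/AAA libraries, against 38.8, 48.4 and 87.7 CPM in +/D libraries. The groups overlapped through D/AAA replicate 3 and +/D replicate 1 alone. The log2 fold change was 1.18 ± 0.22, with an adjusted p of 0.136 by edgeR's quasi-likelihood test, 0.000469 by DESeq2 and 0.0293 by limma voom. Without +/D replicate 1, the highest +/D library, it passed edgeR's test (1.37 ± 0.21, adjusted p 0.0366). Leaving out that overlapping library favours a pass, so this pass adds no support.

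Notch1, the receptor that commits progenitors to the T lineage, had 559, 687 and 3248 CPM in D/AAA libraries, against 330, 422 and 545 CPM in +/D libraries. The groups did not overlap, and D/AAA replicate 7 lay far above the next D/AAA library, replicate 5 at 1371 CPM. Its log2 fold change was 1.29 ± 0.36, with an adjusted p of 0.383 by edgeR's quasi-likelihood test and 0.0441 by DESeq2. Dtx1, a ubiquitin ligase that Notch induces, had 11.5, 37.2 and 236 CPM in D/AAA libraries and 2.19, 7.89 and 37.5 CPM in +/D libraries, and 5 D/AAA libraries lay inside the +/D range, whose top was +/D replicate 1. Of 10 tested Notch receptors and targets, 3 had an unadjusted p under 0.05, all higher in D/AAA, beside 5.09% of all genes, and without replicates 3, 5 and 7 there were 3 of 9, beside 3.21%. Rbpj, the DNA-binding partner of Notch, had a log2 fold change of -0.25 ± 0.18.

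Celsr1, a cadherin-type receptor of planar cell polarity, had the smallest p of all genes. It had 34.6, 74.2 and 114 CPM in D/AAA libraries, against 20.02, 32.1 and 35.8 CPM in +/D libraries. Only D/AAA replicate 1 fell within the +/D range. The log2 fold change was 1.31 ± 0.24 with an adjusted p of 0.136 by edgeR's quasi-likelihood test and 0.000370 by DESeq2. Without D/AAA replicate 1, the lowest D/AAA library, it passed edgeR's test (1.40 ± 0.21, adjusted p 0.0199). Leaving out that overlapping library favours a pass, so this pass adds no support. Celsr1 and Myc both lie on chromosome 15 (GRCm38, 85898929 to 86033777 and 61985391 to 61990374).

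The other genes named as higher were chosen for a positive fold change with at least 8 of 9 D/AAA libraries above the +/D median. Among such genes they were taken by smallest p. Each had an adjusted p of 0.340 by edgeR and an adjusted p under 0.05 by DESeq2. DESeq2 called 0.306% of all genes higher, but it used the same counts that chose these genes, so its calls add no support. Sidt1, a membrane protein of RNA transport, had 11.1, 18.1 and 108 CPM in D/AAA libraries and 4.92, 8.26 and 10.04 CPM in +/D libraries, with no overlap. Pinx1, a telomerase inhibitor, had 2.18, 4.88 and 9.35 CPM in D/AAA libraries and 0.245, 1.19 and 1.93 CPM in +/D libraries, again with no overlap. Ass1, the argininosuccinate synthase of arginine supply, averaged 50.7 ± 22.05 CPM in D/AAA and 21.8 ± 3.60 CPM in +/D libraries (SD), with 1 D/AAA library, replicate 4, inside the +/D range. Ptpn14, a tyrosine phosphatase, averaged 160 ± 80.2 CPM in D/AAA and 73.3 ± 21.02 CPM in +/D libraries, and Adam19, a membrane metalloprotease, 50.2 ± 44.1 CPM in D/AAA and 10.1 ± 4.29 CPM in +/D libraries. For Ptpn14 D/AAA replicate 8 lay inside the +/D range, and for Adam19 replicate 6, at 4.48 CPM, lay below it. Slc17a9, a vesicular nucleotide transporter, Vwce, a secreted protein with von Willebrand and EGF domains, and Trf, transferrin, had log2 fold changes of 1.56 ± 0.35, 2.27 ± 0.54 and 4.10 ± 0.93. For Trf, D/AAA replicates 7 and 3 held 35.3 and 29.2 CPM and replicate 1 had no counts, against at most 0.991 CPM in +/D libraries.

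Among genes named as lower, Dntt, the terminal transferase that adds nucleotides to rearranging receptor genes, had 163, 206 and 344 CPM in D/AAA libraries, against 276, 309 and 387 CPM in +/D libraries. D/AAA replicate 4 was the only D/AAA library above 210 CPM and the only one inside the +/D range (log2 fold change -0.61 ± 0.16, adjusted p 0.382 by edgeR's quasi-likelihood test). Parp6, a mono-ADP-ribosyltransferase, Hibadh of valine breakdown, C9orf72, a guanine exchange factor subunit, and the histone H2B gene Hist2h2be had no overlap between the groups. Parp6 averaged 17.7 ± 4.93 CPM in D/AAA and 32.3 ± 4.01 CPM in +/D libraries, and Hist2h2be 30.0 ± 14.1 CPM in D/AAA and 60.6 ± 6.13 CPM in +/D libraries. Kcnh3 (a potassium channel), Chd6 (a chromatin remodeller), Edc4 (mRNA decapping), Cap1 (actin turnover) and Zfp263 (a zinc finger protein) had log2 fold changes from -0.83 to -0.60, with all 9 D/AAA libraries below the +/D median. These 10 genes were taken by smallest p among those with at least 8 of 9 D/AAA libraries below the +/D median. None of the 10 passed edgeR's test, and DESeq2 called 7 of them, all but Dntt, Cap1 and Hist2h2be. DESeq2 called 0.0556% of all genes lower, but it used the same counts that chose the 10, so its calls add no support.

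Genes of the double positive stage tilted the other way from the growth genes. Of 21 tested, 5 had an unadjusted p under 0.05, all lower in D/AAA, beside 3.12% of all genes, the median log2 fold change was -0.48, and 1 of 21 was positive. Cd8a, a chain of the CD8 co-receptor, had 158, 416 and 627 CPM in D/AAA libraries, against 593, 658 and 768 CPM in +/D libraries. D/AAA replicate 4 alone lay inside the +/D range, and replicates 7 and 3 were lowest (log2 fold change -0.62 ± 0.21). Rag2, part of the receptor gene recombinase, had 19.6, 45.7 and 114 CPM in D/AAA libraries and 52.9, 96.4 and 132 CPM in +/D libraries, with 4 D/AAA libraries inside the +/D range. Leaving out D/AAA replicate 7 gave 9 lower members, beside 3.05% of all genes. Leaving out D/AAA replicates 2 and 4 in turn gave 8 and 10, and leaving out +/D replicate 2 gave 3. Leaving out D/AAA replicates 3, 5 and 7 gave 5, beside 2.07% of all genes, with a median of -0.24.

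Proximal T cell receptor signalling genes had 3 of 27 members lower at that p, beside 3.12% of all genes, Cd247, Lcp2 and Cd3e, with a median of -0.24 and 3 positive fold changes. Cd247, the zeta chain that couples the receptor to its kinases, had 209, 615 and 834 CPM in D/AAA libraries, against 706, 794 and 895 CPM in +/D libraries. Leaving out single libraries gave 0, without D/AAA replicate 5 or +/D replicate 2, to 5, without D/AAA replicate 2 or 4, with 1 without D/AAA replicate 3, 7 or 8 or +/D replicate 3, 4 or 6. The count was 0 without replicates 3, 5 and 7, where 2.07% of all genes were lower. Among immediate early and NF-kB genes, 2 of 20 were lower at that p, beside 3.12% of all genes, 1 without +/D replicate 3, and the median of -0.19 was 0.12 without replicates 3, 5 and 7. Egr1, an early gene of receptor signalling, had 51.2, 177 and 283 CPM in D/AAA libraries and 227, 274 and 325 CPM in +/D libraries, and Nr4a3, an orphan nuclear receptor gene of the same response, had a log2 fold change of -0.97 ± 0.33.

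Genes of mature single positive cells and of class I presentation had higher list medians in D/AAA with and without the distant libraries. Replicate 7 had the lowest score for both lists, at -2.02 and -0.38. Leaving it out after the data were seen favours higher medians, so the values without it add no support. Of 26 mature single positive genes, 5 had an unadjusted p under 0.05, all higher in D/AAA (median 0.38), beside 5.09% of all genes. There were 11 without D/AAA replicate 7 (median 0.48, beside 4.38%) and 9 without replicates 3, 5 and 7 (median 0.49, beside 3.21%), against 3 without D/AAA replicate 9 or +/D replicate 6. Itgb7, an integrin of mature T cells, had 3.51, 68.9 and 114 CPM in D/AAA libraries and 23.4, 37.5 and 42.3 CPM in +/D libraries. D/AAA replicate 7 was below every +/D library and the other 8 D/AAA libraries were above them all, from 48.6 CPM. Ly6c1 had 3.39, 41.6 and 190 CPM in D/AAA libraries and 0.274, 4.51 and 7.10 CPM in +/D libraries, with replicates 4 and 7 inside the +/D range. Its adjusted p was 0.382 by edgeR's quasi-likelihood test and 0.00475 by DESeq2.

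Of 18 class I presentation genes, 5 were higher at an unadjusted p under 0.05 (median 0.27), beside 5.09% of all genes. There were 8 without D/AAA replicate 7, beside 4.38%, and 11 without replicates 3, 5 and 7 (median 0.39), beside 3.21%. B2m, the light chain of class I molecules, had 166, 252 and 332 CPM in D/AAA libraries, against 148, 166 and 210 CPM in +/D libraries. All 9 D/AAA libraries were above the +/D median and 8 were above every +/D library (log2 fold change 0.52 ± 0.15). Interferon-inducible genes had 3 of 28 higher at that p, beside 5.09% of all genes, with a median of 0.10.

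Genes of gamma delta T cells had the highest list median among those with 10 or more tested members, 1.72 over 10 genes, 7 of them higher in D/AAA at an unadjusted p under 0.05, beside 5.09% of all genes. Sox13, a transcription factor of this lineage, had 6.53, 15.9 and 54.2 CPM in D/AAA libraries, against 2.48, 6.62 and 11.9 CPM in +/D libraries. Replicates 7 and 8 were highest and replicates 4 and 6 lay in the +/D range. Tcrg-C4, a constant segment of the gamma chain, had 1.45, 8.85 and 50.7 CPM in D/AAA libraries and 0.330, 2.24 and 4.67 CPM in +/D libraries. Its adjusted p was 0.383 by edgeR's quasi-likelihood test and 0.0241 by DESeq2. Trdc, the constant segment of the delta chain, did not share this direction: it had 8.07, 9.83 and 29.3 CPM in D/AAA libraries and 9.34, 14.8 and 23.8 CPM in +/D libraries. Without D/AAA replicates 3, 5 and 7 the count was 2 of 10, beside 3.21% of all genes, and the median 0.74. The gamma chain segments are near-identical copies in part, so reads may be split among them.

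Of 12 tested NKT and NK genes, 2 were higher at that p, beside 5.09% of all genes, and all 12 were positive (median 0.76). The count was 4 without D/AAA replicate 7 or +/D replicate 2, and 1 without D/AAA replicate 1, 2, 3, 8 or 9. Gzma, a cytotoxic granule protease, had 9.32, 18.6 and 170 CPM in D/AAA libraries, against 9.06, 13.1 and 16.6 CPM in +/D libraries. D/AAA replicates 7, 3, 5 and 8 held 114 to 170 CPM, and the other 5 libraries lay between 9.32 and 18.6 CPM.

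**Figure D2:**
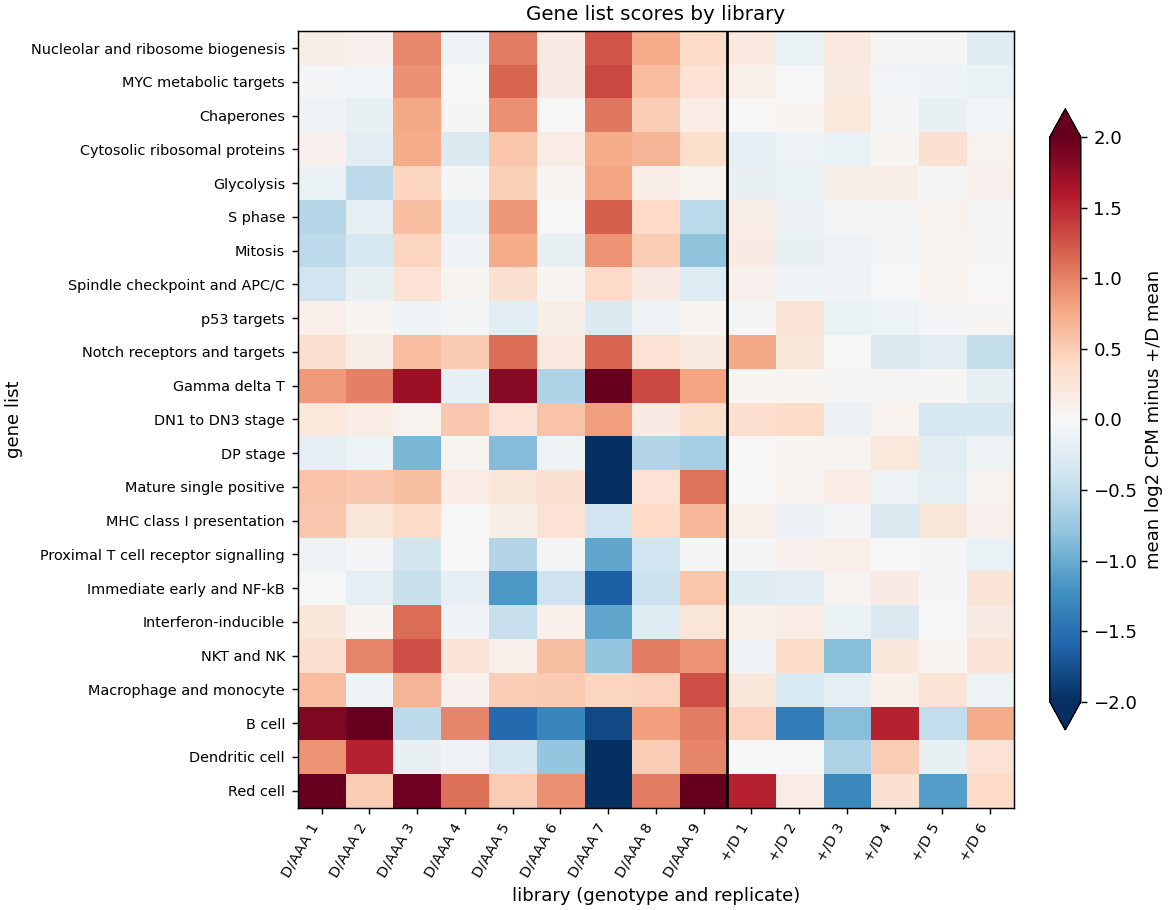
Each cell is the mean log2 CPM of a list's tested genes in 1 library, relative to the mean of the 6 +/D libraries, with colours clipped at 2 and -2, the 9 D/AAA libraries on the left and the 6 +/D libraries on the right. D/AAA replicates 3, 5 and 7 have high scores for nucleolar, metabolic and gamma delta T genes and low scores for double positive genes, while replicate 7 is the lowest library for mature single positive, dendritic and red cell genes.

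Cdc20 itself, on chromosome 4 (GRCm38, 118432901 to 118437352), had 20.4, 42.3 and 105 CPM in D/AAA libraries, against 34.3, 39.5 and 45.8 CPM in +/D libraries. D/AAA values lay on both sides of the +/D range, and the log2 fold change was 0.25 ± 0.27 (adjusted p 0.834 by edgeR's quasi-likelihood test). The counts are per gene and do not separate the AAA, D and wild-type alleles, so they do not check the genotype label. The value was -0.20 ± 0.21 without D/AAA replicates 3, 5 and 7. Of 27 spindle checkpoint and APC/C genes, 1 was higher at an unadjusted p under 0.05, Trip13, the ATPase that disassembles checkpoint complexes, and 1 was lower, Mad1l1, the kinetochore anchor of Mad2. These shares lie near the background of 5.09% of all genes higher and 3.12% lower, so the counts are no result about the list. Mad1l1 had 18.5, 82.6 and 127 CPM in D/AAA libraries and 113, 155 and 183 CPM in +/D libraries, with all 9 D/AAA libraries below the +/D median and 2, replicates 1 and 6, inside the +/D range. Trip13 averaged 7.42 ± 4.18 CPM in D/AAA and 2.83 ± 1.06 CPM in +/D libraries (SD). The higher count was 3 without D/AAA replicate 1 and 2 without D/AAA replicate 9 or +/D replicate 2, and the lower count 2 without +/D replicate 5.

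Division genes varied more among D/AAA libraries than they differed between the groups. Of 32 mitotic genes 0 had an unadjusted p under 0.05 (median 0.17), and their score ran from -0.80 in D/AAA replicate 9 to 0.90 in replicate 7, against -0.14 to 0.17 in +/D libraries. Without replicates 3, 5 and 7 the mitotic median was -0.13, with 1 of 32 lower beside 2.07% of all genes. Without replicates 3, 5, 7, 8 and 9 it was -0.23, with 5 of 32 lower beside 2.73%. Of 35 S phase genes 3 were higher (median 0.37), beside 5.09% of all genes, with scores of -0.57 to 1.20 in D/AAA libraries and -0.12 to 0.13 in +/D libraries. The S phase count was 9 without D/AAA replicate 9, 6 without replicate 1 or 4, and 1 without replicates 3, 5 and 7, where the median was -0.11. Cdt1, which licenses replication origins, had 38.0, 60.5 and 98.2 CPM in D/AAA libraries and 17.1, 31.0 and 42.8 CPM in +/D libraries, with only replicates 2, 4 and 1 inside the +/D range (log2 fold change 0.94 ± 0.25).

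The p53 pathway was examined next. Trp53 had 103, 127 and 255 CPM in D/AAA libraries, against 89.1, 108 and 140 CPM in +/D libraries, with wide overlap (log2 fold change 0.46 ± 0.19, adjusted p 0.542 by edgeR's quasi-likelihood test). Of 21 direct p53 targets, 1 was higher at an unadjusted p under 0.05, near the background of 5.09% of all genes, and the median was 0.00. That gene was Cdkn1a, the cell cycle inhibitor p21, with 1.09, 5.06 and 12.9 CPM in D/AAA libraries and 0.661, 1.10 and 7.34 CPM in +/D libraries. Leaving out D/AAA replicate 7, or any +/D library other than replicate 2, brought that count to 0, and leaving out D/AAA replicate 2, 4 or 9 brought it to 2.

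Markers of other cells in the tissue were measured beside these groups. Early progenitor (double negative) genes summed to 446 to 876 CPM in D/AAA and 317 to 468 CPM in +/D libraries, and 2 of 11 tested members were higher at an unadjusted p under 0.05 (median 0.31), beside 5.09% of all genes. The summed level of 18 B cell genes was 146 to 795 CPM in D/AAA and 257 to 690 CPM in +/D libraries, and 0 of 14 tested members had an unadjusted p under 0.05. For 21 macrophage and monocyte genes it was 93.4 to 259 CPM in D/AAA and 73.8 to 108 CPM in +/D libraries. Of these 2 of 12 were higher, beside 5.09% of all genes, and all 12 were positive. For 11 red cell genes in the table the sum was 19.4 to 1952 CPM in D/AAA and 99.4 to 888 CPM in +/D libraries. Of these 1 of 6 was higher, beside 5.09% of all genes. The red cell count was 5 without D/AAA replicate 7, beside 4.38%, and also 5 without +/D replicate 1. For 21 dendritic cell genes the sum was 99.1 to 1415 CPM in D/AAA and 848 to 1397 CPM in +/D libraries. Listed genes at 0 in all 15 libraries were 4 of 23 for fibroblasts, Col3a1 among them, 4 of 18 for endothelium, Kdr among them, and 6 of 15 for adipocytes, Adipoq among them. The endothelial list summed to 55.98 to 105 CPM in D/AAA and 58.9 to 96.0 CPM in +/D libraries, and the adipocyte list to 2.54 to 31.9 CPM in D/AAA and 1.89 to 13.5 CPM in +/D libraries. The fibroblast list summed to 856 to 1375 CPM in D/AAA and 1028 to 1651 CPM in +/D libraries, of which Thy1, which thymocytes also express, made up 833 to 1343 CPM in D/AAA and 1013 to 1645 CPM in +/D libraries. The part of these cells in the gene groups above was not tested.

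**Figure D3:**
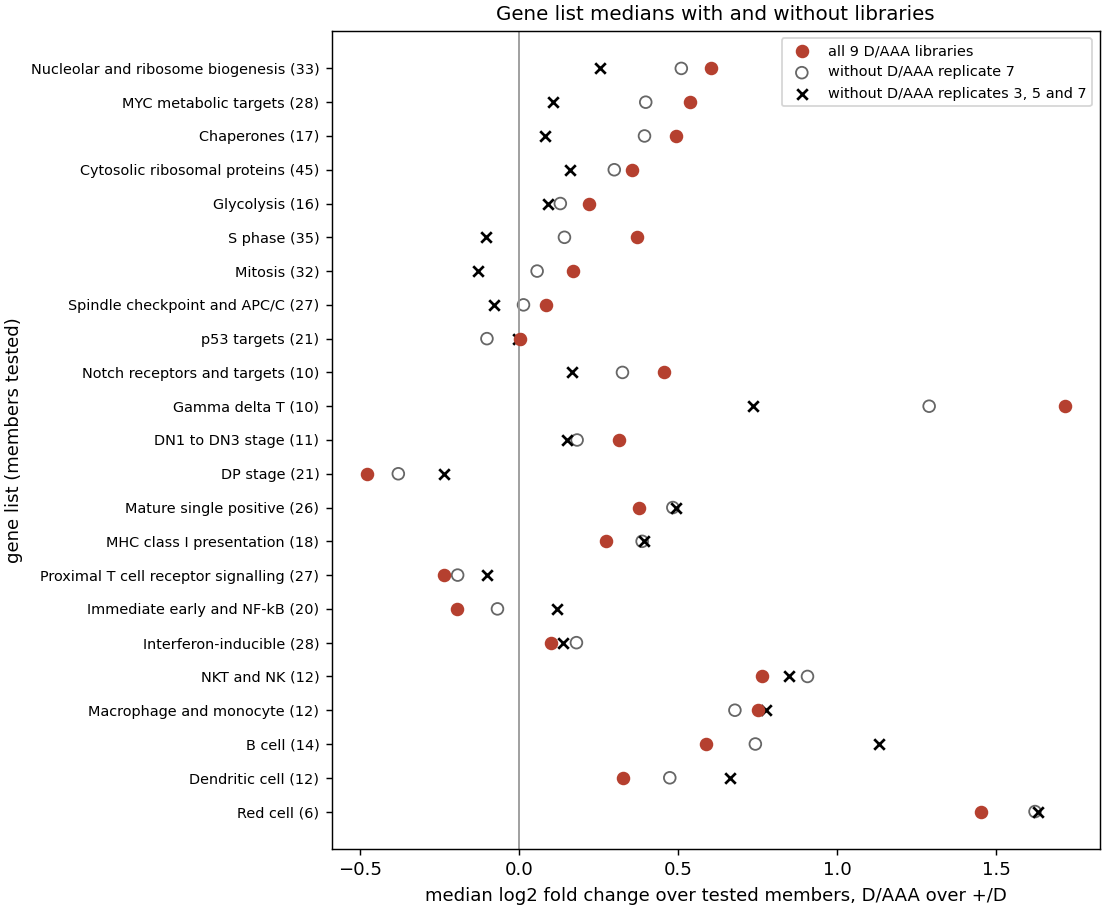
Median log2 fold change, D/AAA over +/D, of the tested members of 23 gene lists, with all 9 D/AAA libraries (filled), without replicate 7 (open) and without replicates 3, 5 and 7 (crosses). Medians of the nucleolar, metabolic and chaperone lists move toward 0 when replicates are left out, and those of the mature single positive and class I lists do not. Replicates 3, 5 and 7 hold the highest nucleolar, metabolic and chaperone scores, and replicate 7 the lowest mature single positive and class I scores. The choice of libraries left out therefore favours these shifts.

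Chromosome expression scores, the mean over a chromosome's genes of log2 CPM relative to +/D libraries, were higher on chromosomes 15 and 14 in part of the D/AAA libraries. Chromosome 15 (292 genes) had scores of -0.04, 0.22 and 0.47 in D/AAA libraries as lowest, median and highest, against -0.07, 0.01 and 0.06 in +/D libraries. D/AAA replicates 5, 3, 7, 8 and 9 had 0.47, 0.38, 0.37, 0.29 and 0.22, replicate 6 had 0.08, and the other 3 lay in the +/D range. On the log2 scale 0.292 is the midpoint between no difference and a level 1.5-fold higher across a chromosome, and 4 D/AAA libraries passed it, replicate 8 only just at 0.293, against 0 +/D libraries. The difference of 0.21 had p = 0.0210 in a two-sided exact permutation test over all 5005 splits, and 0.0943 after Benjamini-Hochberg adjustment over 20 chromosomes. Without D/AAA replicate 2, the lowest D/AAA library, it passed (0.24, adjusted exact p 0.04995), but leaving out the lowest value favours a pass. With genes down to 1 CPM the adjusted exact p was 0.362. Without replicates 3, 5 and 7 the difference was 0.11 (adjusted exact p 0.186). DNA copy number was not analysed here.

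Chromosome 14 (227 genes) had scores of 0.01, 0.08 and 0.46 in D/AAA libraries and -0.05, -0.01 and 0.05 in +/D libraries. Replicate 7 was highest and replicate 9 next, at 0.25 (difference 0.14, adjusted exact p 0.0943), and the difference was 0.08 without replicate 7. The lowest adjusted exact p, 0.0519, belonged to chromosome 5, with a difference of -0.07. None of the 20 chromosomes passed. By gene, 75 of 423 tested chromosome 15 genes (17.7%) were higher at an unadjusted p under 0.05 and 4 lower, beside 5.09% higher over all genes. The D/AAA replicates with the 3 highest chromosome 15 scores, 5, 3 and 7, were also the 3 with the highest Myc levels. These values share their libraries, and Myc lies on that chromosome.

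**Figure D4:**
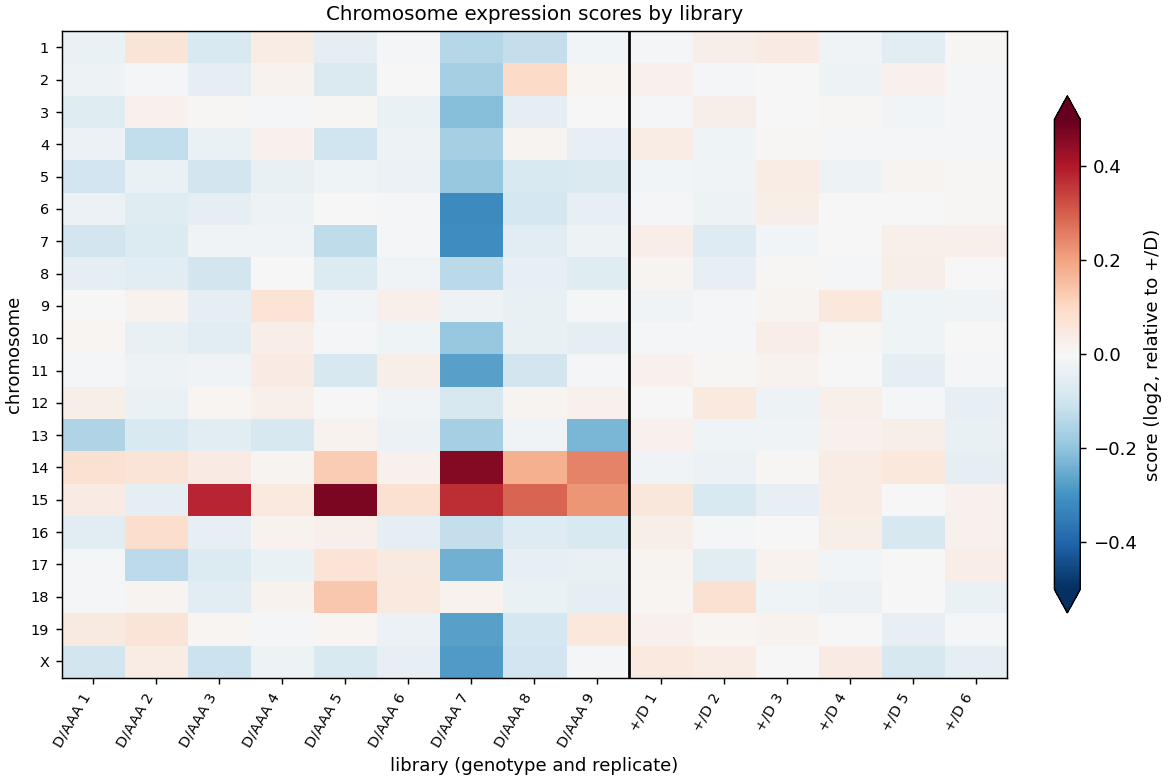
Each cell is the score of 1 chromosome (rows) in 1 library (columns), on the log2 scale relative to the mean of the 6 +/D libraries, with the 9 D/AAA libraries on the left. Chromosome 15 is highest in D/AAA replicates 5, 3, 7 and 8, and chromosome 14 in replicate 7.

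A T cell clone generally expresses 1 rearranged beta chain variable gene (Trbv). The largest share of Trbv counts in 1 gene was 21.8, 24.8 and 56.9% in D/AAA libraries as lowest, median and highest, against 18.2, 24.7 and 28.6% in +/D libraries. Trbv13-2 led in all 6 +/D libraries and in 6 D/AAA libraries. In D/AAA replicate 7 Trbv3 held 56.9% (95% Wilson interval 54.7 to 59.1%, 1084 of 1904 counts), against 2.76 to 3.995% in +/D libraries. In D/AAA replicate 3 Trbv16 held 41.6% (39.98 to 43.2%, 1503 of 3615 counts), against 6.90 to 7.99% in +/D libraries. In D/AAA replicate 8 Trbv12-1 held 22.8% (20.98 to 24.7%, 454 of 1994 counts), against 2.98 to 3.70% in +/D libraries. Intervals cover counting error only. The group difference of 5.83 percentage points had a two-sided exact permutation p of 0.288. The alpha chain variable genes held 314 counts in replicate 7, 0.00695% of the library, against 0.0478 to 0.0735% in +/D libraries.

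**Figure D5:**
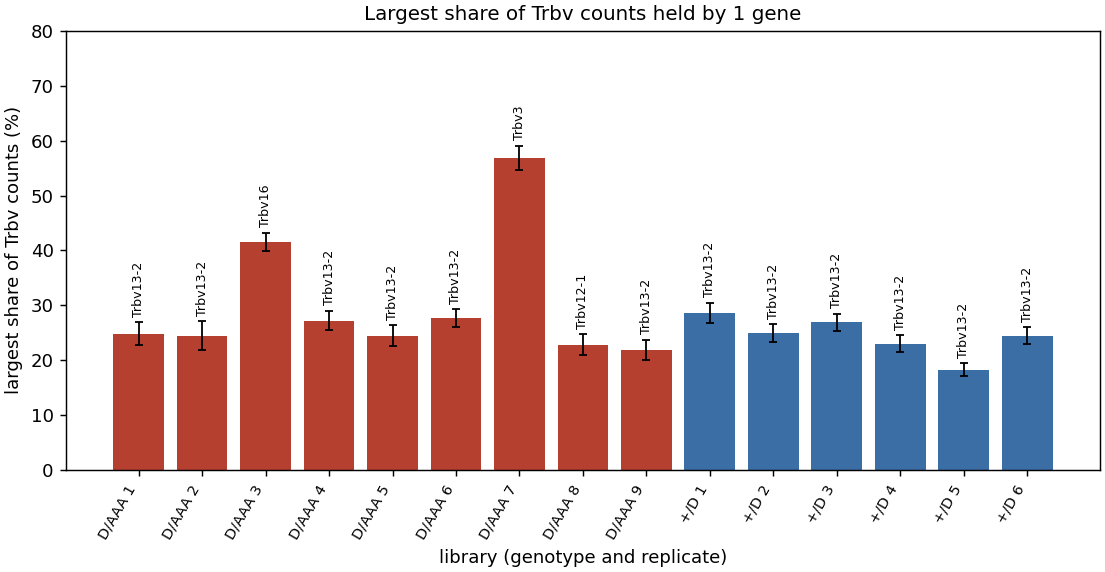
Bars give the largest share of Trbv counts held by 1 gene in each library, in percent, with 95% Wilson intervals and the gene's name, for 9 D/AAA and 6 +/D libraries. Replicates 7 (Trbv3, 56.9%) and 3 (Trbv16, 41.6%) exceed all +/D libraries.

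Genes near Cdc20 were also counted. Within 20 Mb of Cdc20, 33 of 298 tested genes (11.1%) had an unadjusted p under 0.05, against 9.31% on the rest of chromosome 4 and 8.21% of all genes. Lurap1 (GRCm38, chromosome 4, 116132406 to 116151338), chosen after its values were seen, had counts in 7 of 9 D/AAA libraries, with 0, 3.79 and 12.9 CPM, against 0 counts in all 6 +/D libraries. Its mean was at least 8.95-fold higher in D/AAA, taking 3 counts per +/D library as the floor. The adjusted p was 0.340 by edgeR's quasi-likelihood test and 0.000370 by DESeq2. Having counts in D/AAA libraries alone, it could enter these tests only through the group where it is high, so they add no support. D/AAA replicates 5 and 8 had no Lurap1 counts.

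Thymus of mice that also carry the allele labelled MYCChr6 gave a second set of libraries with the same contrast, 3 D/AAA and 2 +/D, sharing no library with the first. All 5 had low Xist, 0.552 to 8.95 CPM, unlike 14 of the 15 libraries without MYCChr6, and all 5 had Y-linked RNA, with Ddx3y at 3.13 to 13.2 CPM and Kdm5d at 4.23 to 27.1 CPM. MYCChr6 and these sex-linked markers cannot be told apart. Of the 907 genes at an unadjusted p under 0.05 without MYCChr6, 716 (78.94%) had the same sign with it, against 61.49% of all 11044 genes. With 3 and 2 libraries, 1 library can set the sign of many genes that vary together. The share is therefore a description and no test of agreement. Myc had 205, 40.8 and 91.7 CPM in D/AAA MYCChr6 replicates 1, 2 and 3, against 69.2 and 48.6 CPM in +/D MYCChr6 libraries, so the groups overlapped. Notch3 had 46.0, 100.4 and 157 CPM in D/AAA MYCChr6 libraries, against 76.7 and 119.9 CPM in +/D MYCChr6 libraries, with the +/D values inside the D/AAA range. Cdc20 had 63.8, 47.6 and 70.5 CPM in D/AAA MYCChr6 libraries, against 36.1 and 31.5 CPM in +/D MYCChr6 libraries, with no overlap. D/AAA MYCChr6 replicate 1, the highest for Myc, had 64.0% of its Trbv counts in Trbv12-1 (61.8 to 66.2%, 1130 of 1765 counts). By edgeR's quasi-likelihood test 1 of 14109 genes (0.00709%) passed, the predicted gene Gm28437 (log2 fold change 3.68 ± 0.49, adjusted p 0.000891), and 0 passed without +/D MYCChr6 replicate 1. At an unadjusted p under 0.05 there were 5.01% of genes for this contrast and 4.03% for its difference between thymus with and without MYCChr6.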

How the data were processed

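FastQC, STAR 2.5.3a, RSEM 1.3.0 and the build GRCm38 are the tools and genome listed per the submitters' processing notes. The values the authors deposited for these libraries are whole numbers and were taken as RSEM's expected counts per gene, used without further rounding. The table held 50686 genes, of which 50462 had a symbol in GENCODE M21. Strandedness and annotation release were not given in the sources used here, so antisense and near-identical genes are uncertain. The members and lists were chosen with earlier results of these data known.

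edgeR 4.0.16 (filterByExpr, TMM, robust quasi-likelihood) in R 4.3.3 tested D/AAA against +/D with no covariate, and DESeq2 1.42.0 and limma 3.58.1 (voom) were alternatives. The fitting code was tested on simulated data. Named genes were, per direction, those of at least 5 CPM with at least 8 of 9 D/AAA libraries on 1 side of the +/D median, by smallest p, filled to 10, plus Myc, Trp53 and Cdc20. Chromosome scores used genes of at least 10 CPM. Exact permutation tests were two-sided over 5005 splits. No pair of libraries was identical. Totals of 2673329 to 6749336 counts, much of them ribosomal RNA, limit the precision of low genes. Some members of the lists are counted but not reported here by name.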

Additional observations from a re-analysis of the deposited data

Results flagged for a closer look

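Among 88 checks, each of 1 measure within 1 genotype group, 11 found a library far from the rest of its group. For normal values chance flags about 1 in 20 checks. The checks share the same 15 libraries and most genes were chosen for their differences, so that rate need not hold here. D/AAA replicate 7 was the distant library in 7 of the 11. It had 108 CPM of Sidt1, where the next D/AAA library had 39.9 CPM, 362 CPM of Ptpn14 (next 185 CPM), 158 CPM of Adam19 (next 61.6 CPM) and 105 CPM of Cdc20 (next 60.7 CPM). Its double positive score was -2.54 (next -0.91), its mature single positive score -2.02 (next 0.16) and its red cell score -3.16 (next 0.51). D/AAA replicate 4 had 344 CPM of Dntt, where the next D/AAA library had 210 CPM. In +/D libraries, replicate 2 had 20.02 CPM of Celsr1 (next 30.0 CPM), replicate 1 had 42.6 CPM of Kcnh3 (next 60.3 CPM) and replicate 6 had a gamma delta T score of -0.16 (next 0.02).

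The D/AAA difference of Gm28437 was larger in thymus with MYCChr6 than without it, by 3.42 ± 0.52 on the log2 scale (edgeR interaction term, adjusted p 0.00982). All 5 libraries with MYCChr6 had Y-linked RNA and low Xist, and 14 of the 15 without it had high Xist and next to no Y-linked RNA, so the allele and these sex-linked markers cannot be told apart.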

How the results depend on the processing

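The count of genes passing was 0 by edgeR, 52 by DESeq2, 1 by limma voom and 10 without a low-count filter. It was 0 to 1 with each library left out, with Celsr1 passing without D/AAA replicate 1 and Notch3 without +/D replicate 1. Each of these libraries lay in the other group's range for its gene, so leaving it out favours a pass. The count was 1 without D/AAA replicates 1 and 2, the lowest totals, and 0 without replicates 3, 5 and 7. Without replicates 3, 5, 7, 8 and 9, chosen after the data were seen for their high chromosome 15 scores, the count of genes passing was also 0. There 1 of 33 nucleolar, 1 of 28 metabolic and 0 of 10 gamma delta T genes were higher at an unadjusted p under 0.05. Over all genes 3.09% were higher, and the list medians were 0.04, 0.11 and 0.35. The log2 fold change of Cdc20 reversed to -0.20 without replicates 3, 5 and 7 and to -0.30 without replicates 3, 5, 7, 8 and 9. The cause was not tested. Passing chromosomes numbered 0 in the analysis reported and 1, chromosome 5, by a trimmed mean. With each library left out the number was 0 to 2. Chromosome 5 passed without D/AAA replicate 2, 4, 5 or 7, joined by chromosome 15 without replicate 2 and chromosome 8 without replicate 4. Without replicates 3, 5 and 7 the number was 2, chromosomes 5 and 13. Where chromosomes 5, 8 and 13 passed, their scores were lower in D/AAA. The chromosome 15 difference was 0.17 to 0.24 with each library left out. It passed at 0.24 without D/AAA replicate 2, the lowest D/AAA library for that score, which favours a pass. The difference in the largest Trbv share was 2.49 to 6.87 percentage points. In MYCChr6 thymus the 5 libraries alone gave 2 genes, and both the contrast and its difference with and without MYCChr6 gave 0 to 1, with 0 without +/D MYCChr6 replicate 1. A fit with sex as a term was not run, since in all 15 libraries Ddx3y was at 0 and Eif2s3y, Kdm5d and Uty were at 0.444 CPM or less. No paired analysis was possible because the labels carry no replicate numbers, and those used here only name libraries. Depth limits low genes most.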
